A study of Mus musculus with 16 samples.

Results

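This set comprised 10 membrane protein genes of mouse liver, 7 tetraspanins (Cd63, Cd9, Cd81, Cd82, Cd151, Tspan3 and Tspan8) and 3 genes of the L6 family (Tm4sf1, Tm4sf4 and Tm4sf5). They were found by gene name, and all 10 were present among the 24394 gene names shared by both deposited count tables. Messenger RNA of whole liver had been sequenced in 16 libraries. The DKO group held 4 livers with floxed alleles of both Arid1a and Arid1b plus Alb-Cre, and its 4 controls carried both floxed genes but no Cre. The BKO group held 4 livers with floxed Arid1b plus Alb-Cre, and its 4 controls carried the floxed Arid1b gene but no Cre. The proteins ARID1A and ARID1B are mutually exclusive subunits of a SWI/SNF (BAF) chromatin remodelling complex. Alb-Cre is a recombinase driven by the albumin promoter and acts chiefly in hepatocytes, while the RNA came from all cells of the liver. No group lost ARID1A alone, and every knockout library carried Cre while its controls did not, so effects of ARID1A loss, of combined loss and of Cre cannot be told apart in DKO livers. The sources used here do not give age.

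The 10 genes were picked from both families with their fold changes over the controls already known. Those fold changes, and the number of the 10 that passed a test, are therefore given as a description and no p-value is attached to them. A gene counted as called when its adjusted p (Benjamini-Hochberg over all tested genes of an edgeR fit) was under 0.05. Levels are CPM, library-scaled counts after TMM normalization, as mean ± SD over n = 4 libraries per group, and standard errors (SE) belong to log2 fold changes.

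Tetraspanins are small proteins that cross the membrane several times and carry a small and a large extracellular loop. They bind one another and laterally recruit integrins, immunoglobulin superfamily proteins and proteases into membrane patches called the tetraspanin web. CD63 is the member best known from late endosomes, lysosomes and the vesicles released from them, while CD9, CD81, CD82 and CD151 act mostly at the cell surface. The L6 proteins have a similar topology but form a separate family, and TM4SF4 is known from liver, intestine and pancreatic islets.

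Each library of the DKO experiment summed to 8699417 to 11031443 counts, and those of the BKO experiment were deeper, at 21151726 to 40551934. Arid1b was lower in both knockouts, at 60.03 ± 13.7 CPM in DKO livers against 89.3 ± 9.17 CPM in their controls, and at 44.3 ± 3.98 CPM in BKO livers against 84.8 ± 2.01 CPM in their controls. Arid1a stood at 108 ± 6.08 CPM in DKO livers and 124 ± 10.2 CPM in their controls, with overlapping libraries. Counts cover whole genes, so they do not check the deletion of single exons. The 10 hepatocyte markers summed to 73890 to 105900 CPM in DKO libraries and 128100 to 156600 CPM in their controls. The sums were 109200 to 130900 CPM in BKO libraries and 102600 to 113800 CPM in theirs. Alb was the largest part, at 53340 CPM in DKO livers and 100100 CPM in controls. Of the 9 tested in the DKO experiment 4 were called lower and 0 higher, beside 16.6% and 19.2% of all tested genes. Apob was higher in DKO livers without overlap (19790 CPM against 16140 CPM) but was not called. Mean levels of Ass1 were only 0.66 to 1.46 CPM over the groups.

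In DKO livers 9 of the 10 genes had enough counts to be tested, and 7 of the 9 were called, 5 higher and 2 lower. Of all 12848 genes tested in that experiment 35.8% were called, 19.2% higher and 16.6% lower. The called genes were Cd63, Tm4sf4, Tspan8, Tspan3 and Cd151 on the higher side and Cd81 and Cd82 on the lower side. Cd9 and Tm4sf1 were not called, and Tm4sf5 was not tested. Tspan8 reached the count minimum only through its DKO libraries (4 of 4 over it, against 0 of 4 controls), whereas the other 8 tested genes reached it in all 4 libraries of both groups. The DKO and control libraries did not overlap for 8 of the 9 tested genes, 6 higher and 2 lower, beside 35.4% of all tested genes, 18.5% higher and 16.9% lower.

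**Figure D1:**
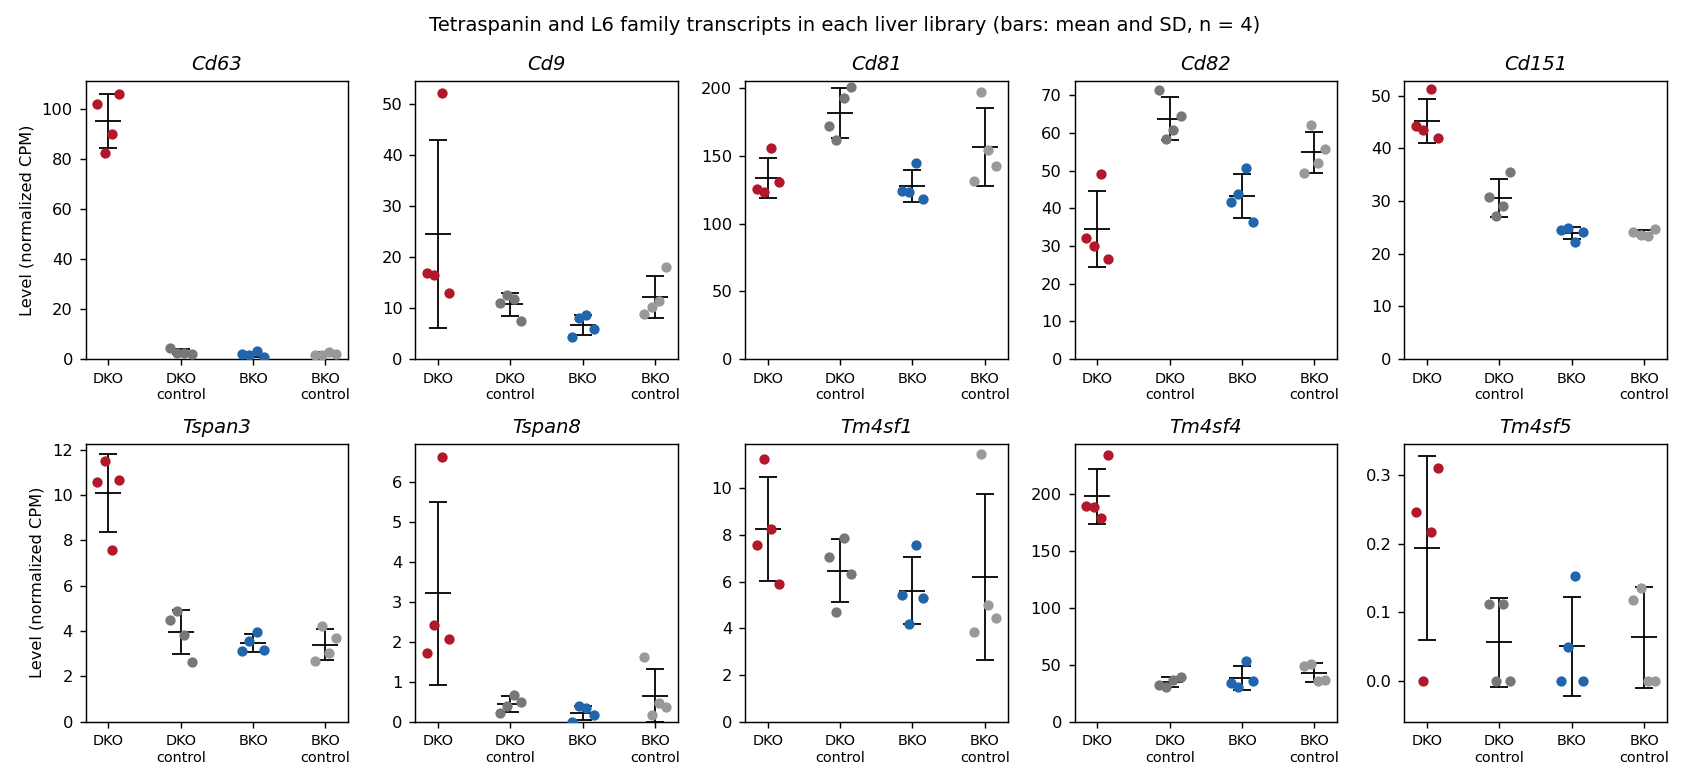
Level of each of the 10 genes (normalized CPM, linear axis) in every liver library, with 1 panel per gene; points are libraries and bars are the mean and SD of n = 4. Cd63 and Tm4sf4 lie far above their controls in all 4 DKO livers, 1 DKO liver stands apart for Cd9 and Tspan8, and the BKO livers lie close to theirs for most genes.

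Cd63 showed the largest difference of the 10. The gene lies on the plus strand of chromosome 10 (128900989 to 128912822 on GRCm38, GENCODE M21) and overlaps no other annotated gene. In the order DKO-7068, DKO-7070, then DKO-7112, then DKO-7137, its level was 102, 82.5, 90.1 and 106 CPM. In the controls, ordered WT-7067, WT-7069, then WT-7114, then WT-7139, it was 4.37, 2.58, 2.58 and 2.15 CPM, and later lists of 4 values keep these orders. All 4 DKO livers were near one another and at least an order of magnitude above every control. The group levels were 95.1 ± 10.7 CPM in DKO livers and 2.92 ± 0.988 CPM in controls, a 32.6-fold difference (log2 fold change 5.02, SE 0.20, n = 4 per group). This log2 fold change stood at the 99.7th percentile of all genes tested. It rested on 4010 counts in DKO livers and 106 in controls. Within the DKO group the coefficient of variation was 11.3%, against 33.8% among the controls. The 250 bases before its RefSeq start are shown because Cd63 differed most of the 10 genes. They run from chr10:128909095-128909344 (GRCm38.p6, plus strand, credited to RefSeq) and are 48.8% G and C, at the 38.1st percentile of all promoter windows.
Cd63: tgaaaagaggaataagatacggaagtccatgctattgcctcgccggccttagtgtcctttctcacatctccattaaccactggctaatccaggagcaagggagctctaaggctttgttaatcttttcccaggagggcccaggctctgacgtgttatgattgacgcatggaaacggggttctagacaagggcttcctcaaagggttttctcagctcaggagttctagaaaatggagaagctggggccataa
A set of 6 motifs was searched on both strands of this stretch, and a hit would stand in capitals. They were the AP-1 site TGANTCA, the TEAD site GGAATG, the GC box GGGCGG, the CCAAT box CCAAT, the TATA box TATAAA and the lysosomal CLEAR element GTCACGTG. None of these letters occurs in the Cd63 window. Among all 32851 windows of this length, 6.75% held the AP-1 letters, 12.6% the TEAD letters, 32.7% the GC box, 33.8% the CCAAT box, 12.4% the TATA box and 1.85% the CLEAR element.

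Tm4sf4, the L6 gene also known from intestine, had the highest level per length of the 10 in DKO livers. It lies on the plus strand of chromosome 3 (57425314 to 57441677) without an overlapping gene. It stood at 189.9, 189, 179 and 234 CPM in DKO livers, against 32.2, 30.8, 36.8 and 39.6 CPM in controls. The lowest DKO liver was thus well above the highest control. Group levels were 198 ± 24.5 CPM in DKO livers and 34.9 ± 4.06 CPM in controls, a 5.68-fold difference (log2 fold change 2.51, SE 0.13). Its spread was small in both groups, with coefficients of variation of 12.4% and 11.6%. The 250 bases before its RefSeq start (chr3:57425160-57425409, plus strand, GRCm38.p6) are shown beside those of Cd81, an abundant gene that was lower in DKO livers (chr7:143052500-143052749, plus strand).
Tm4sf4: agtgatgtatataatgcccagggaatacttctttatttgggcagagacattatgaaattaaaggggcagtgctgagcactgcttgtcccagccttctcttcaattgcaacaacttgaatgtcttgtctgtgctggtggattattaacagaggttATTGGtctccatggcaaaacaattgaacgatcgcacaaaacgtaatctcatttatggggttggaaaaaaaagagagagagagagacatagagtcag
Cd81: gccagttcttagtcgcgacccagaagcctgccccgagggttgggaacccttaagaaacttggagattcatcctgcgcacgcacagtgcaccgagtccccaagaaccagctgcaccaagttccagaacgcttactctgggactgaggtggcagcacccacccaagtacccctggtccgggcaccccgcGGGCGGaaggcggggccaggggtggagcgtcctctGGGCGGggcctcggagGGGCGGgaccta
Capitals mark the CCAAT box of Tm4sf4, read on the minus strand and starting 96 bases before the RefSeq start, and 3 GC boxes of Cd81. The Tm4sf4 window is 40.8% G and C and the Cd81 window 65.6%, at the 14.1st and 84.5th percentiles of all windows. All 10 genes matched a RefSeq window by gene name, with 14 windows in all. For Tspan3 and both Cd151 windows, the bases just after the start were not found in a GENCODE transcript of that gene. GC boxes also occur before Cd9, Cd151 and 2 of the 4 starts of Cd82, and no GC box letters occur before Cd63, Tspan3, Tspan8, Tm4sf1, Tm4sf4 or Tm4sf5.

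Tm4sf1, whose protein is known from endothelial and tumour cells, starts 123 kb from Tm4sf4 on the other strand of chromosome 3 (57285611 to 57301988). Its level was 7.56, 11.2, 8.25 and 5.91 CPM in DKO livers and 7.05, 4.68, 7.85 and 6.31 CPM in controls. The groups overlapped (8.24 ± 2.23 CPM in DKO livers and 6.47 ± 1.35 CPM in controls, log2 fold change 0.35, SE 0.23). Tm4sf5, an L6 gene studied in fibrotic liver, was near the detection limit, with 8 counts over the 4 DKO libraries and 2 over the 4 controls. The ratio of these counts after scaling was 3.44, with a 95% exact interval of 0.686 to 33.2 that covers counting error only, so a difference was not detectable at this depth. The L6 genes thus spanned 1 large difference, 1 with overlapping groups and 1 near the floor of 3 counts.

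Among the cell surface tetraspanins, CD81 serves as a receptor for hepatitis C virus on human hepatocytes. Cd81 (chromosome 7, 143052739 to 143067934) was lower in DKO livers, at 126, 124, 156 and 131 CPM, against 172, 162, 193 and 201 CPM in the controls. The highest DKO liver lay just below the lowest control. Levels were 134 ± 14.8 CPM in DKO livers and 182 ± 18.2 CPM in controls, 1.36-fold lower (log2 fold change -0.44, SE 0.12). With scaling by total counts only, the log2 fold change was -0.27 and the gene was no longer called. The annotation places a processed transcript, R74862, on the strand opposite Cd81, and the sources used here do not state whether counting used strand.

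Cd82, whose protein is also known as the metastasis suppressor KAI1, was the other gene called lower. The gene (chromosome 2, 93419111 to 93463140) stood at 32.1, 29.9, 49.2 and 26.6 CPM in DKO livers, against 71.4, 58.3, 60.9 and 64.6 CPM in the controls. DKO-7112 lay nearest to the controls and the other DKO livers were close together. The group levels were 34.4 ± 10.1 CPM in DKO livers and 63.8 ± 5.69 CPM in controls, 1.85-fold lower (log2 fold change -0.89, SE 0.18). Cd82 overlaps the miRNA gene Mir7001 and, on the opposite strand, Gm10804.

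CD151, which holds laminin-binding integrins in the tetraspanin web, had a gene that was modestly higher. Cd151 (chromosome 7, 141467392 to 141471473) stood at 44.2, 43.5, 51.3 and 41.96 CPM in DKO livers and 30.7, 27.2, 29.1 and 35.5 CPM in controls. The groups did not overlap, and the means of 45.2 ± 4.17 CPM in DKO livers and 30.6 ± 3.54 CPM in controls were 1.48-fold apart (log2 fold change 0.56, SE 0.11). Cd151 overlaps Gm10575 on the opposite strand. Tspan3, a tetraspanin gene expressed in many tissues (chromosome 9, 56131725 to 56165477), stood at 10.6, 11.5, 7.60 and 10.7 CPM in DKO livers and 4.48, 4.87, 3.81 and 2.65 CPM in controls. Here too every DKO liver was above every control, and the difference was 2.55-fold (log2 fold change 1.34, SE 0.22).

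Cd9 and Tspan8 rested on a single DKO liver more than the other genes did. CD9 takes part in membrane fusion and binds the precursor of the growth factor HB-EGF, and TSPAN8 is known from gut epithelium and carcinomas. Cd9 (chromosome 6, 125460266 to 125494791) stood at 52.1 CPM in DKO-7112, but at 16.8 CPM in DKO-7068, 16.5 in DKO-7070 and 12.95 in DKO-7137, against 10.97, 12.6, 11.8 and 7.45 CPM in the controls. The groups did not overlap, yet the DKO liver with the least Cd9 was only just above the highest control. Means were 24.6 ± 18.4 CPM in DKO livers and 10.7 ± 2.27 CPM in controls (2.30-fold, log2 fold change 1.19, SE 0.45). Without DKO-7112 they were 15.4 CPM in DKO livers and 10.7 CPM in controls, 1.44-fold. Cd9 passed the threshold in the DESeq2 Wald test, which was an alternative, and did not in the edgeR test.

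Tspan8 (chromosome 10, 115816832 to 115849893) stood at 6.62 CPM in DKO-7112, against 1.73 CPM in DKO-7068, 2.43 in DKO-7070 and 2.07 in DKO-7137. Its controls held 0.224, 0.382, 0.673 and 0.505 CPM, from 16 counts in all. All DKO livers were above all controls, with means of 3.21 ± 2.29 CPM in DKO livers and 0.446 ± 0.190 CPM in controls (7.20-fold, log2 fold change 2.81, SE 0.55). Without DKO-7112 the difference was 4.65-fold. Antisense genes overlap the spans of both Cd9 (Gm28809) and Tspan8 (4930422I22Rik). The strand setting is not stated and overlap of exons was not examined, so whether their reads entered the sense gene counts is unknown. DKO-7112 also had the lowest albumin share of all counts, 3.76%, against 6.24% to 6.38% in the other DKO livers and 8.62% to 9.94% in the controls. Arid1b was at 78.0 CPM in DKO-7112, against 55.4 CPM in DKO-7068, 61.4 in DKO-7070 and 45.4 in DKO-7137. The lowest control, WT-7067, held 80.7 CPM of Arid1b. The part of either trait in the Cd9 and Tspan8 values was not tested.

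**Figure D2:**
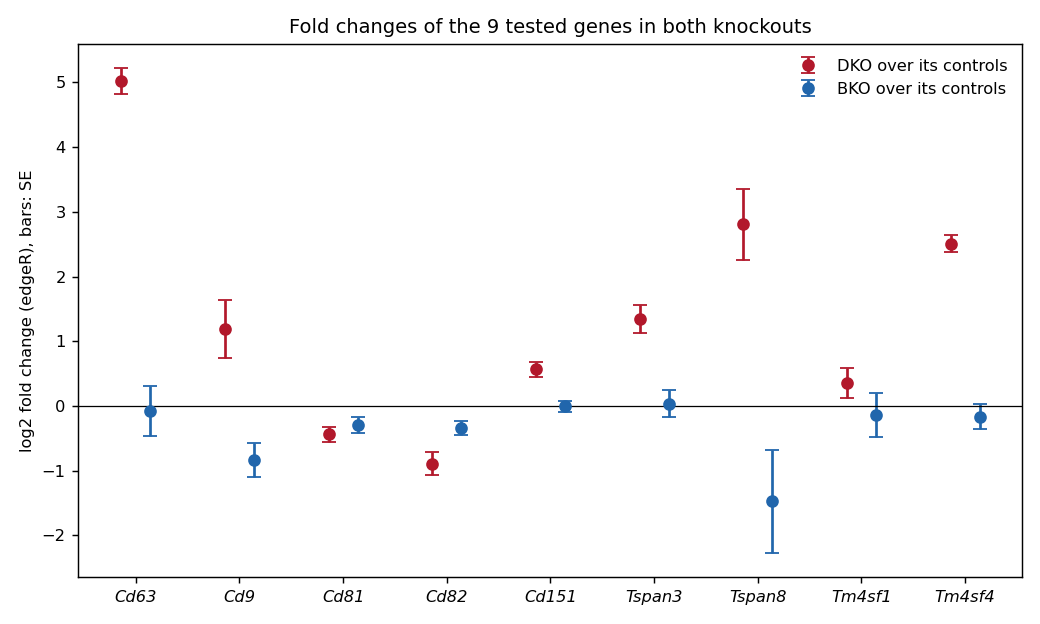
log2 fold change over the own controls for the 9 genes with enough counts, in DKO (red, left of each pair) and BKO (blue) livers; bars are SE. Cd63, Tspan8 and Tm4sf4 lie above 2 in DKO livers, and the BKO values lie between -1.48 and 0.03.

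In BKO livers 0 of the same 9 genes were called by edgeR, where 0.583% of the 14061 tested genes were, 0.185% higher and 0.398% lower. At an unadjusted p under 0.05 the number was 3 (Cd9, Cd81 and Cd82), beside 11.6% of all genes tested there, and the DESeq2 Wald test also called 0. Taking the BKO livers F1, F3, F4 and F6 in that order, Cd63 stood at 2.21, 1.62, 3.02 and 0.782 CPM. In their controls F2, F5-2, F5 and F7 it stood at 1.62, 1.46, 2.90 and 2.14 CPM, and later lists keep these orders. The groups overlapped throughout, at 1.91 ± 0.945 CPM in BKO livers and 2.03 ± 0.650 CPM in controls (log2 fold change -0.09, SE 0.39). Tm4sf4 stood at 34.3, 30.2, 53.7 and 36.1 CPM in BKO livers and at 49.3, 51.1, 36.1 and 36.5 CPM in controls (log2 fold change -0.17, SE 0.19), again with overlap. Cd151 was at 23.9 ± 1.18 CPM in BKO livers and 23.97 ± 0.581 CPM in controls, the smallest coefficient of variation of the 9 genes in both groups (4.94% and 2.43%).

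Cd9 alone of the 9 did not overlap between BKO livers and controls, beside 7.0% of all genes tested there, 3.64% higher and 3.36% lower. It was at 4.37, 8.04, 8.55 and 5.90 CPM in BKO livers, against 8.88, 10.2, 11.3 and 18.1 CPM in controls. The highest BKO liver was just under the lowest control, and the means were 6.71 ± 1.94 CPM in BKO livers and 12.1 ± 4.12 CPM in controls, 1.81-fold lower (log2 fold change -0.84, SE 0.26). Cd81 was at 128 ± 11.7 CPM in BKO livers and 156 ± 28.7 CPM in controls, and Cd82 at 43.2 ± 5.88 CPM in BKO livers and 54.8 ± 5.52 CPM in controls, both with overlapping libraries. Tspan3 stood at 3.46 ± 0.395 CPM in BKO livers and 3.40 ± 0.696 CPM in controls.

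Tspan8 in the BKO experiment depended on a control. It was at 0, 0.388, 0.336 and 0.163 CPM in BKO livers and at 1.62 CPM in the control F2, against 0.170 to 0.470 CPM in the other 3 controls. The fold difference was 2.96-fold lower with all libraries and 1.51-fold lower without F2. The bile duct keratin gene Krt19 was also highest in F2, at 7.88 CPM against 0.475 to 1.57 CPM in the other controls and 0.261 to 0.794 CPM in BKO livers, but the sum of the 10 bile duct markers was 52.4 CPM in F2, below F5 at 76.7 CPM. Their part in the Tspan8 value was not tested. Tm4sf1 was at 5.62 ± 1.42 CPM in BKO livers and 6.19 ± 3.55 CPM in controls, with F5-2 at 11.5 CPM. Tm4sf5 had 7 counts over the BKO livers and 8 over their controls.

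The effect in DKO livers minus that in BKO livers was fitted over all 16 libraries, each knockout relative to its own controls. Of the 9 genes 6 were called, all toward a higher value in DKO livers, while 22.5% of the 14050 genes tested were called, 11.0% of them toward higher and 11.5% toward lower values. The difference in log2 fold change was 5.07 (SE 0.46) for Cd63, 2.64 (SE 0.24) for Tm4sf4 and 4.26 (SE 1.05) for Tspan8. It was 1.997 (SE 0.56) for Cd9, 1.28 (SE 0.29) for Tspan3 and 0.54 (SE 0.13) for Cd151. For Cd9 and Tspan8 the difference adds opposite signs, higher in DKO and lower in BKO livers. Without the BKO control F2 the difference for Tspan8 was 3.26, and without DKO-7112 that for Cd9 was 1.32. For the genes that were lower in DKO livers the difference was -0.18 (SE 0.18) for Cd81 and -0.58 (SE 0.22) for Cd82, and neither was called with all libraries.

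**Figure D3:**
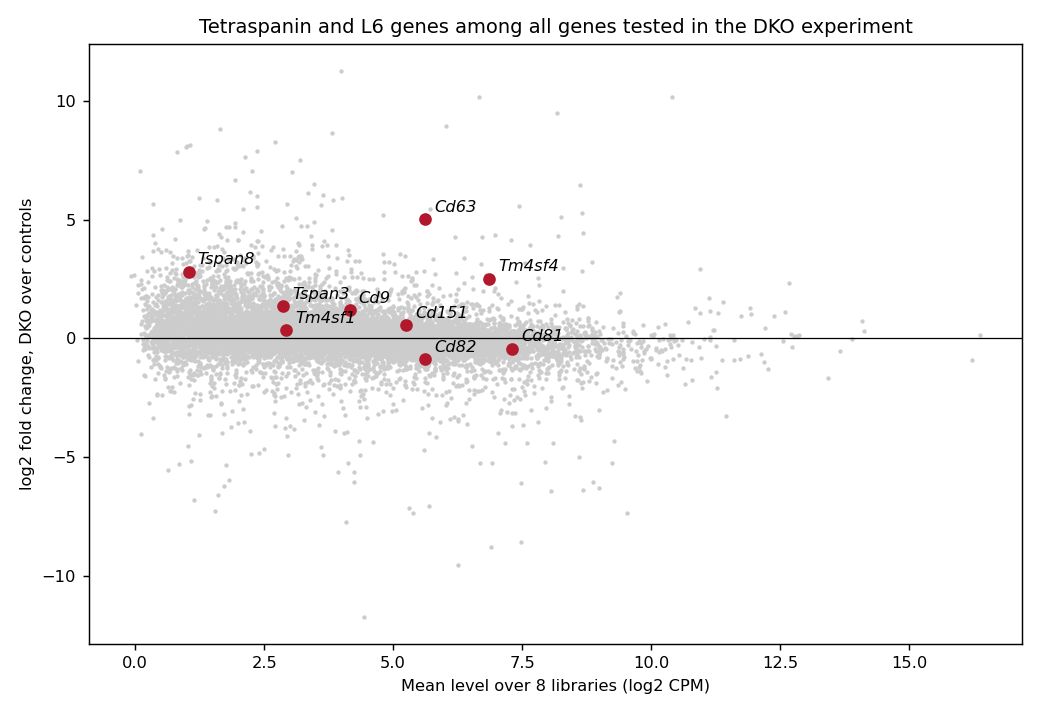
log2 fold change of DKO livers over their controls against mean level (log2 CPM) for all genes tested in the DKO experiment (grey), with the 9 tested tetraspanin and L6 genes in red. Cd63 and Tm4sf4 stand above most genes of similar level, and Cd81 and Cd82 stand a little below 0.

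Levels of different genes can be compared only per length, so CPM were divided by the length of all annotated exons (RPKM, GENCODE M21). In control livers of the DKO experiment Cd81 came first at 63.2 ± 6.33 RPKM, then Tm4sf4 at 23.3 ± 2.71 RPKM and Cd82 at 21.2 ± 1.89 RPKM, and the ranges of Tm4sf4 and Cd82 overlapped. Cd151 at 11.2 ± 1.29 RPKM and Cd9 at 5.23 ± 1.11 RPKM followed, each clear of its neighbours. Tm4sf1, Tspan3 and Cd63 were at 1.56, 0.925 and 0.792 RPKM, with each overlapping the next. In DKO livers Tm4sf4 came first at 132 ± 16.4 RPKM, Cd81 at 46.5 ± 5.15 RPKM was next, and Cd63 at 25.8 ± 2.91 RPKM took the third place, all 3 with ranges apart from one another. Cd63 thus stood at rank 8 of 10 in the controls and at rank 3 in DKO livers. BKO livers and their controls gave the same order of all 10 genes, from Cd81 (44.4 RPKM in BKO livers and 54.3 RPKM in controls) down to Tm4sf5. With the longest coding transcript as the length, an alternative chosen after the data were seen, Cd63 moved up, to 85.7 RPKM in DKO livers (overlapping Cd81 at 87.4 RPKM) and 2.63 RPKM in their controls, at rank 6. Tm4sf4 and Cd82 also changed places in both control groups under that length.

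**Figure D4:**
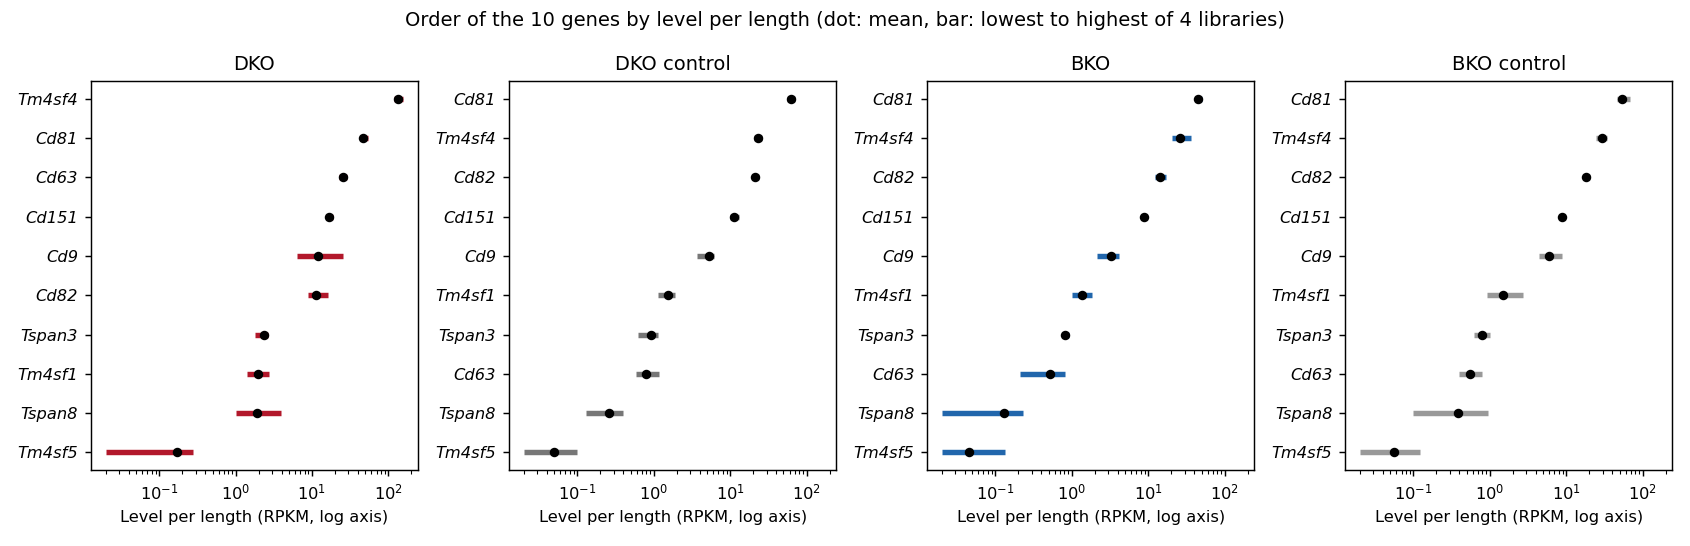
The 10 genes ordered by mean level per length (RPKM, log axis) within each group; dots are means and bars run from the lowest to the highest of 4 libraries, with libraries at 0 drawn at the left end. Tm4sf4 and Cd63 stand higher in the DKO order than in the other 3 groups.

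The rest of both families was read from a list of 24 further tetraspanin genes and 2 further L6 genes, all present in both tables. In DKO livers 15 of these 26 were tested, and 6 rose, 2 fell and 7 did not pass, with a median log2 fold change of 0.47 against 0.02 for all genes tested. The share called was 53.3%, beside 35.8% of all genes (19.2% higher and 16.6% lower). Tspan18 (6.32 ± 1.26 CPM in DKO livers and 2.45 ± 0.697 CPM in controls) and Cd53, a leukocyte tetraspanin gene (19.1 ± 3.998 CPM in DKO livers and 8.04 ± 1.95 CPM in controls), rose 2.58-fold and 2.38-fold (edgeR adjusted p = 0.00179 and 0.00108). Cd53 was at 14.8 to 23.2 CPM in the DKO libraries and at 6.62 to 10.8 CPM in the controls. Tspan33, which encodes a partner of the protease ADAM10, rose 2.22-fold (16.3 ± 3.46 CPM in DKO livers and 7.34 ± 0.752 CPM in controls, edgeR adjusted p = 0.000719). Cd37, another leukocyte tetraspanin gene, rose 1.90-fold (edgeR adjusted p = 0.0219), Tspan13 1.87-fold (edgeR adjusted p = 0.0457) and Tspan7 1.38-fold (edgeR adjusted p = 0.0329). These calls were lost in most of the 8 fits that left out 1 library, with Cd37 and Tspan13 called in 3 of them and Tspan7 in 2.

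The genes that fell were Tspan31 and Tspan12. Tspan31 stood at 92.0, 95.3, 114 and 109.6 CPM in DKO livers and at 163, 168, 216 and 179.8 CPM in controls (log2 fold change -0.82, SE 0.13, edgeR adjusted p = 0.000745). Tspan12, which in other tissues is a component of the Norrin receptor complex, stood at 111, 91.5, 119.6 and 128 CPM in DKO livers and at 181, 188, 194 and 152 CPM in controls (edgeR adjusted p = 0.00305, log2 fold change -0.67). Neither gene's groups overlapped. On the opposite strand, Tspan31 overlaps the protein-coding gene Cdk4 and Tspan12 the antisense gene Gm30270. Cd37, which was called higher, likewise overlaps the protein-coding gene Tead2. Without a stated strand setting, and with overlap of exons not examined, it is unknown whether reads of these pairs were mixed. The call count was 5 without DKO-7070, when Cd53, Tspan18 and Tspan33 rose and Tspan12 and Tspan31 fell, and those calls were present in each fit that left out 1 library. Tspan4, Tspan9, Tspan14 and Tspan15 were among the 7 that did not pass, at log2 fold changes of -0.17, 0.45, -0.06 and 0.49. In BKO livers 0 of 18 tested genes of this list passed by edgeR or by the DESeq2 Wald test, and 0 had an unadjusted p under 0.05, where 0.583% of all genes passed edgeR and 11.6% had such a p. The difference between the knockout effects was called for Tspan13 (1.34) and Tspan33 (1.22) toward higher, likewise for Tspan15 (0.85), and for Tspan31 (-0.92) and Tspan12 (-0.65) toward lower values in DKO livers. In all, 5 of 19 tested genes were called. That share of 26.3% was near the 22.5% of all genes tested for the difference, 11.0% higher and 11.5% lower.

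**Figure D5:**
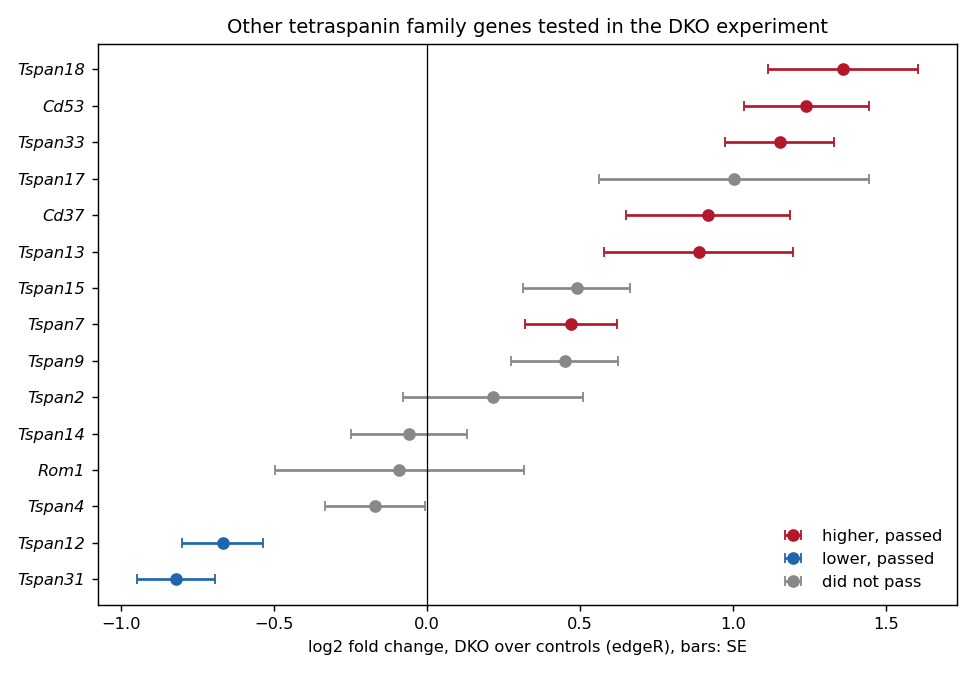
log2 fold change of DKO livers over their controls for the 15 other tetraspanin genes with enough counts; bars are SE and colours show the edgeR call. The 6 genes that rose lie on the higher side, and Tspan12 and Tspan31 fell.

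Proteins known to associate with tetraspanins were read from a list of 15 genes. This list and the endosome list below were made with earlier results of these data known. The genes given a p from them were those called with the smallest p, so these p-values are a description. In DKO livers 12 were tested, and 8 rose, 0 fell and 4 did not pass, with a median log2 fold change of 1.09. The share called was 66.7%, beside 35.8% of all genes tested (19.2% higher and 16.6% lower). Timp1, a metalloprotease inhibitor whose protein binds CD63 on human cells, had 222 counts over the DKO libraries and 3 over the controls. The ratio of these counts was 63.6 after scaling (95% exact interval 21.5 to 311, counting error only). Timp1 reached the count minimum only through its DKO libraries (4 of 4 over it, against 0 of 4 controls), so it had to differ and its p is not given. It is nevertheless 1 of the 8 counted as rising and part of the 66.7%. Without WT-7067, which held 2 of the 3 control counts, the means were 143-fold apart. Itga6, the integrin subunit held by CD151, stood at 25.6, 27.5, 27.7 and 25.7 CPM in DKO livers and at 9.96, 11.4, 9.76 and 14.1 CPM in controls (edgeR adjusted p = 9.97e-05, log2 fold change 1.24). The protease gene Adam10 rose 1.62-fold, at 90.9 ± 4.39 CPM in DKO livers and 56.3 ± 2.12 CPM in controls (edgeR adjusted p = 0.000234). Ptgfrn, a partner of CD9 and CD81, rose 3.11-fold, at 25.1 ± 9.40 CPM in DKO livers and 8.07 ± 0.984 CPM in controls (edgeR adjusted p = 0.000556). In BKO livers 0 of 14 tested partners passed in edgeR, beside 0.583% of all genes.

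Since CD63 resides in late endosomes, 14 genes of late endosome and lysosome membranes and of vesicle release were read as well. In DKO livers 2 rose, 3 fell and 9 did not pass, with a median log2 fold change of -0.10. The share called was 35.7%, against 35.8% of all genes tested, so the count of this list was at the background. Sdcbp, which encodes the CD63-binding adaptor syntenin, rose 1.52-fold (77.7 ± 6.23 CPM in DKO livers and 50.97 ± 1.98 CPM in controls, edgeR adjusted p = 0.000757), and the other gene that rose was Rab7. The lysosomal membrane genes Scarb2, Npc1 and Lamp2 fell by 0.70, 0.62 and 0.47 on the log2 scale (edgeR adjusted p = 0.00199, 0.0229 and 0.0312). Scarb2 was at 83.1 ± 14.6 CPM in DKO livers and 135 ± 5.72 CPM in controls. In BKO livers 0 of these 14 passed in edgeR, beside the same 0.583%.

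Protein-coding genes whose bodies lie within 100 kb of the 10 were examined, a window set after the files had been seen. Of 37 tested neighbours 14 rose and 2 fell in DKO livers, beside 35.8% called among all genes, 19.2% higher and 16.6% lower. Near Tm4sf5 7 of 10 tested neighbours rose, which is the highest of the counts for the 10 genes and is given for that reason. Near Cd63 the count was 2 higher and 1 lower among 8 tested. The neighbours named next were chosen after their values were seen, so their p-values are a description. Rdh5, a retinol dehydrogenase gene, starts 21899 bases from the GENCODE start of Cd63, which lies upstream of the RefSeq start used above. Its level was 57.4 ± 12.4 CPM in DKO livers and 14.5 ± 2.12 CPM in controls (edgeR adjusted p = 2.18e-05, log2 fold change 1.99). The integrin gene Itga7 was at 41.5 ± 16.7 CPM in DKO livers and 11.3 ± 2.03 CPM in controls (edgeR adjusted p = 0.000989, log2 fold change 1.87). Bloc1s1, which starts 23046 bases from the same GENCODE start, did not pass (log2 fold change of -0.14 with an SE of 0.13). The single tested neighbour of Tm4sf4 was Wwtr1, which encodes the transcriptional coactivator TAZ and stood at 79.4 ± 12.6 CPM in DKO livers and 33.7 ± 2.29 CPM in controls (edgeR adjusted p = 6.81e-05, log2 fold change 1.24). Of 10 tested neighbours of Cd151, 0 passed in edgeR.

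Among the genes most like Cd63 over the 16 libraries, by Pearson correlation of log2 CPM after subtracting the mean of each experiment's controls, were Col1a1 (0.987), Nol4l (0.984), Pea15a (0.984) and Lgi4 (0.984). In all, 138 of 12701 genes had a correlation above 0.95. The coefficient describes a split between the 4 DKO libraries and the rest, so it carries no p-value. Col1a1, a collagen gene that stellate cells express, stood at 559 CPM in DKO livers and 28.2 CPM in their controls, and at 12.1 CPM in BKO livers and 11.8 CPM in theirs.

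Markers of other liver cells moved alongside these genes, and in whole liver RNA more cells of a type and more RNA per cell cannot be told apart. The counts that follow stand beside 35.8% of all genes called in DKO livers, 19.2% higher and 16.6% lower. Of 12 macrophage markers 10 rose and 0 fell in DKO livers, with summed levels of 372 to 472 CPM in DKO libraries and 189.5 to 291 CPM in their controls. Among those that rose, Gpnmb, Trem2 and Mmp12 had mean control levels of 0.083, 0.21 and 0.22 CPM, under the count minimum of 1.04 CPM. They were tested only through their DKO libraries and had to be higher, so the count of 10 cannot be set fully against the share of all genes. Cx3cr1, which also rose, had a mean control level of 0.69 CPM, under the same minimum. Of 10 stellate cell markers 6 rose and 2 fell, and the sums were 1645 to 2497 CPM in DKO libraries and 437 to 606 CPM in controls. Of 10 endothelial markers 2 rose and 2 fell, a share near that of all genes, with overlapping sums of 509 to 549.9 CPM in DKO libraries and 504 to 618 CPM in controls. Of 8 lymphocyte and leukocyte markers 1 was tested, Ptprc, and it rose, while the sums were 39.3 to 62.3 CPM in DKO libraries and 12.1 to 21.4 CPM in controls. Bile duct markers summed to 83.4 to 863 CPM in DKO libraries and 37.5 to 59.1 CPM in controls, with 1 of 4 tested genes higher. The highest sum, 863 CPM, was that of DKO-7112, in which Cd9 and Tspan8 were also highest, and 837 CPM of it came from Spp1. The duct keratin gene Krt19 was at 0.977 CPM in DKO-7112, below DKO-7068 at 4.52 CPM and DKO-7070 at 3.51 CPM, and Epcam was at 2.17 CPM there, also below both. No marker of these lists was at 0 in all libraries of a group. The part of these cell types in the levels of the 10 genes was not tested.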

How the data were processed

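RNA of whole liver was extracted with TRIzol, cleaned on RNeasy columns and turned into Ovation libraries, per the labels' protocols. What the authors deposited are raw counts per gene in 1 table per experiment. Per the submitters' processing notes the tools were featureCounts 1.6.2, HISAT2 2.1.0 and Trim Galore 0.4.1, and the builds GRCm38, mm10 and GRCh38 are listed without roles. The annotation, the strand setting and the treatment of shared reads were not given in the sources used here. Each table held 24421 rows, and 27 names of the BKO table had turned into dates and do not enter the fit over both tables. Libraries carry the tags of the labels. Whether F5 and F5-2 came from 1 animal is not given, and p-values measure the spread between these samples.

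Tests used edgeR 4.0.16 under R 4.3.3 (filterByExpr, TMM scaling, robust quasi-likelihood F test, Benjamini-Hochberg adjustment over all tested genes), per experiment, and over all 16 libraries for the difference between the effects. The step was tested on simulated counts. The SE of a log2 fold change is its size over the root of F, folds are ratios of mean CPM, and RPKM use exon lengths of GENCODE M21. The 10 genes and all lists were chosen with earlier results of these data known. Named were the 10 genes, every other family gene called, up to 4 called genes by p of each other list, the targeted genes and the 5 genes most like Cd63, of which 1 is not reported here. Rab7, Tspan4, Tspan9, Tspan14, Tspan15 and the neighbours Rdh5, Itga7, Bloc1s1 and Wwtr1 were chosen after their values were seen. So were the markers Krt19, Epcam, Gpnmb, Trem2, Mmp12, Cx3cr1, Alb, Apob and Ass1. Tried as alternatives were the Wald test of DESeq2 1.42.0, its size factors, scaling by total counts only, no filter, a filter of 1 CPM in at least 4 libraries, each library left out, F5 libraries summed, DKO-7068 and DKO-7070 summed, and the tag series (70 or 71) as a term in the DKO fit.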

Additional observations from a re-analysis of the deposited data

Results flagged for a closer look

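In 5 of 112 sets of 4 libraries (28 named genes in 4 groups) a single library stood apart from the other 3 by Dixon's ratio, and chance gives about 1 in 20. DKO-7112 accounted for 2 of them, at 52.1 CPM for Cd9 and 6.62 CPM for Tspan8. Another was the BKO control F5-2, at 11.5 CPM for Tm4sf1. The BKO liver F1 held 0.392 CPM of Timp1, from 8 counts, and the DKO control WT-7139 held 126 CPM of Scarb2, below the other controls.

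The effect in DKO livers differed from that in BKO livers, by the edgeR interaction over 16 libraries, for 15 named genes. The difference in log2 fold change was 5.07 for Cd63, 1.997 for Cd9, 0.54 for Cd151, 1.28 for Tspan3, 4.26 for Tspan8 and 2.64 for Tm4sf4, which describes genes chosen with these effects known. It was -0.65 for Tspan12, 1.34 for Tspan13, -0.92 for Tspan31 and 1.22 for Tspan33 among the other tetraspanin genes. Among partner and endosome genes it was 0.96 for Itga6, 0.58 for Adam10, 1.94 for Ptgfrn, 0.65 for Sdcbp and -0.82 for Scarb2.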

How the results depend on the processing

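Of 476 log2 fold changes of the 9 tested genes recomputed under an alternative, 460 moved by less than the spread between replicates, 16 moved by more and 0 called values changed sign. The number called among them in DKO livers was 7 or 8 with each library left out and 7 or 8 in the other settings, 0 in BKO livers throughout, and 6 or 7 for the difference with a library left out. Without DKO-7112, Cd82 was also called for the difference. In DKO livers Cd9 was called with the DESeq2 Wald test, with total counts, with DKO-7068 and DKO-7070 summed, and without DKO-7068, DKO-7070 or DKO-7137.

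The other family genes called in DKO livers numbered 5 to 10 with a library left out and 5 with DKO-7068 and DKO-7070 summed. Over all genes, BKO calls numbered 17 to 104 with a library left out (17 without F1, 40 without F3, 29 without F6, 31 without F2 and 51 without F7, against 82 with all) and 355 with the DESeq2 Wald test, and the cause was not tested. Scaling by total counts moved the median log2 fold change of all DKO genes by 0.18 and gave 3266 higher and 1269 lower calls, against 2467 and 2137 with TMM. For the difference it gave 2627 and 744 against 1552 and 1610, and for BKO 22 and 86 against 26 and 56. No paired analysis was possible because the labels name libraries by tags that no groups share, and numbers 1 to 4 were given here in accession order only. The tag series as a term in the DKO fit gave 4816 calls over all genes, 9 among the other family genes and 7 among the 9 tested genes. Depth limited Tm4sf5 and Tspan8 most.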
